A study of Homo sapiens with 14 samples.

Results

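Melanosome and pigment synthesis genes were followed across 2 human melanoma cell lines in which the forkhead transcription factor FOXD1 had been targeted with siRNA or overexpressed. The set holds 10 genes: the enzymes TYR, TYRP1 and DCT, the structural and membrane proteins PMEL and MLANA, the transporters OCA2, SLC45A2, SLC24A5 and MFSD12, and the receptor GPR143. The genes were chosen with earlier results of these data known. All probes annotated to their symbols were then members, without regard to the probe values. This gave 9 of the 20043 genes named on the array, through 12 of the 48097 probes used, with 4 probes for SLC45A2, and DCT transcripts were not analysed here. Total RNA was measured on 14 Illumina bead arrays. WM266-4 cells, labelled BRAF mutant, received FOXD1 siRNA 1, FOXD1 siRNA 2 or a negative control siRNA of high GC content, on 3 arrays each. A375 cells, which have the same label, received a FOXD1 plasmid (overexpression, 3 arrays) or its empty vector backbone (2 arrays). The A375 labels speak both of transfection and of transduction, and the time between treatment and harvest was not given in the sources used here. Each line stands for a single established culture, and nothing in the labels says that replicates were grown separately, so the p-values cover the spread between arrays, which may be technical.

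Melanosomes are organelles related to lysosomes in which pigment cells make and store melanin. Tyrosinase starts melanin synthesis from tyrosine, and the related enzymes TYRP1 and DCT act on later intermediates, while amyloid fibrils made from PMEL give the young organelle its scaffold. Transporters of the melanosome membrane set its pH, ion content and cysteine supply. The transcription factor MITF drives many of these genes through E-boxes and M-boxes in their promoters.

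The groups of WM266-4 arrays differ by the siRNA, so both sequences are shown as the labels give them, 5′ to 3′. The label of siRNA 2 has a gap inside the sequence, which was closed here.

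siRNA 1: uacugcuaggauuuccaauuguuaa
siRNA 2: gccgaggaaacagacaucgacgugg

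Promoters are shown for the 4 genes that passed a test against their own control, as the 250 bases before the RefSeq start site (assembly GRCh38.p14, the strand of the gene, 5′ to 3′). RefSeq windows matched 8 of the 10 genes by symbol, with 9 windows in all. Capitals mark the M-box core CATGTG, or CACATG where it lies on the other strand, and the forkhead core TAAACA or its reverse complement TGTTTA.

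TYRP1 (chr9:12693135-12693384, plus strand): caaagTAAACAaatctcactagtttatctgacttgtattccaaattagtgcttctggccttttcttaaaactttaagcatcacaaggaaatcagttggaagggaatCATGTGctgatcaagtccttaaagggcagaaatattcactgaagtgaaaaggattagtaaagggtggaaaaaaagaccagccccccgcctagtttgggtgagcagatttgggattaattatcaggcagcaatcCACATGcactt
MLANA (chr9:5890639-5890888, plus strand): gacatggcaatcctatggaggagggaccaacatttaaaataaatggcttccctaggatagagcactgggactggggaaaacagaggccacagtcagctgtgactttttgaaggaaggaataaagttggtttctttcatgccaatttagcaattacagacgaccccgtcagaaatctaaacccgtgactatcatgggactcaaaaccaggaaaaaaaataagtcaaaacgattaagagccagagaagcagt
SLC24A5 (chr15:48120740-48120989, plus strand): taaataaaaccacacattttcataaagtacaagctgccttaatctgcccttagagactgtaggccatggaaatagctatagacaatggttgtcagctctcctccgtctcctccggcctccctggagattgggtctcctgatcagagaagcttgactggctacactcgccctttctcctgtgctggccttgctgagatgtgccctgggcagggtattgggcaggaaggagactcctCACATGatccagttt
MFSD12 (chr19:3557587-3557836, minus strand): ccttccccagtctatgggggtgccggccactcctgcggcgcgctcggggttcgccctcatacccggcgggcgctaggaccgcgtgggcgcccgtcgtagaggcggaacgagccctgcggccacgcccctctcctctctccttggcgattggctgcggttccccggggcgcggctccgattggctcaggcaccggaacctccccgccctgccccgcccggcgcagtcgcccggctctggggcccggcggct

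Over 300 bases, from 250 before to 50 after the start, the M-box core was found in the windows of 6 genes. TYR held it with the first base at -104 and -12, TYRP1 at -144 and -11, OCA2 at -153, SLC24A5 at -15 and GPR143 at -61 and -33. One of the DCT windows held it at -215 and -134. It was absent from the MLANA and MFSD12 windows, and 11.1% of all 35116 RefSeq windows of this length held it on either strand. The palindromic E-box CACGTG, found in 7.256% of all windows, was in none of the 9. The forkhead core stood once, at -245 in the TYRP1 window, and is in 12.32% of all windows. The TEAD core GGAATG, with its reverse complement CATTCC, stood once, at -176 in the other DCT window, and is in 14.03% of all windows. These matches describe letters in a window and not bound sites.

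Between 22104 and 24257 probes, or 46.0% to 50.4%, were detected per array at a detection p under 0.05. Values below are background-corrected, quantile-normalised log2 signals, compared between groups for the same probe only. The FOXD1 probe averaged 4.42 with siRNA 1, where 1 of 3 arrays detected it, against 5.81 with control siRNA, where all 3 did (limma adjusted p = 0.000128). The arrays labelled siRNA 2 differed from control by 0.10 on the log2 scale (adjusted p = 0.852, 95% confidence interval -0.257 to 0.458). Those arrays also carry the name FOXD2 in a label, and the FOXD2 probe differed by -0.04 there (adjusted p = 0.948). Neither named target was called lower on them, so directions drawn from them rest on the label. With overexpression the FOXD1 probe was 0.42 higher on the log2 scale (adjusted p = 0.253), and whether it reads the plasmid's transcript was not tested. For A375 empty vector replicate 1 the intensities deposited repeat those of overexpression replicate 3, so the authors' processed values stood in for it in every A375 comparison. A375 overexpression replicate 3 stands apart from its 2 partners in several pigment genes and is given separately below. Of 8 melanocytic lineage markers 7 had probes, and MITF, SOX10, TFAP2A, EDNRB and S100A1 were detected on all 14 arrays. Erythroid markers were detected on all arrays of no group, whereas KRT10, COL1A2, VWF and CD14, listed as markers of other cell types, were detected on all arrays of each group. The summed signal of the listed fibroblast markers that were tested ran at 4233 to 6036 with siRNA 1, 3075 to 4165 on the arrays labelled siRNA 2 and 3473 to 4474 with control siRNA, and at 1701 to 3488 with overexpression and 850.2 to 903.5 with empty vector. COL1A2 made up most of this sum, averaging 12.26, 11.82, 11.90, 11.18 and 9.59 in these groups on the log2 scale. COL1A1, COL3A1, DCN and LUM averaged between 4.36 and 5.41. LUM was lower with overexpression (4.59) than with empty vector (5.41), so the sum describes COL1A2 more than a cell type. The part of this signal in the results was not tested, and in bulk RNA fewer cells with a transcript and less of it per cell cannot be told apart.

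**Figure D1:**
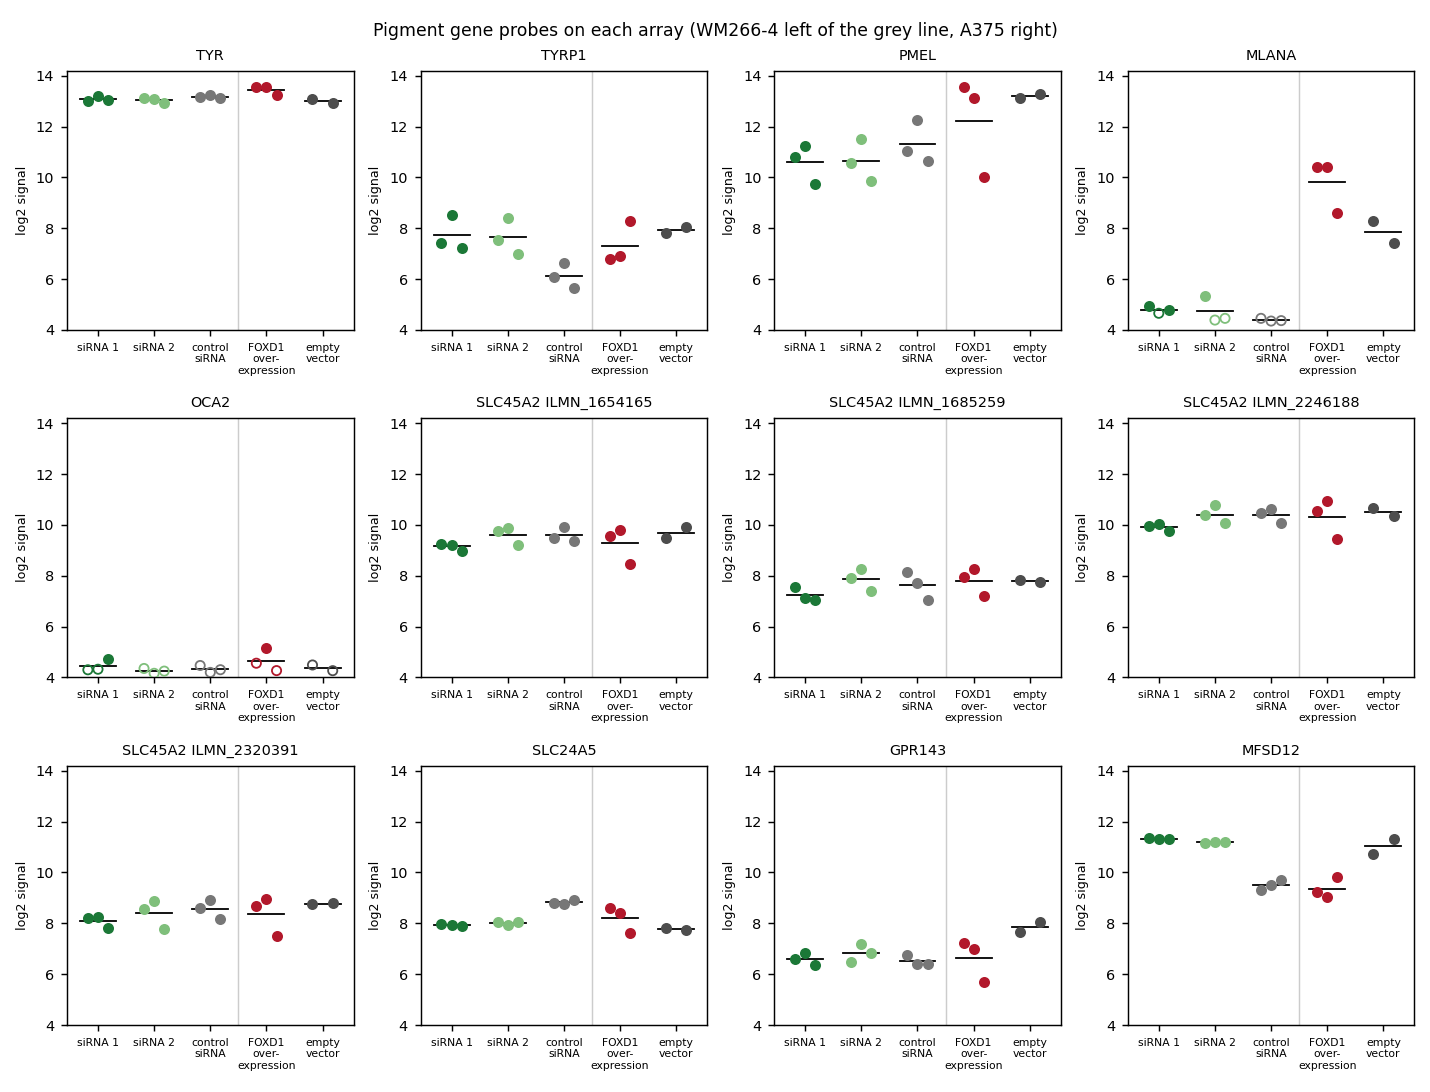
Log2 signal (vertical axis) of each of the 12 pigment gene probes on each array, by group along the horizontal axis, with WM266-4 groups left of the grey line and A375 groups right of it. Filled points were detected, open points were not, and bars are group means. MFSD12 sits above 11 in both siRNA groups and below 10 with control siRNA, while MLANA lies between 4.35 and 5.34 in WM266-4 and above 7 on all 5 A375 arrays.

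The siRNA arrays were set against control siRNA to see which pigment genes moved when FOXD1 was targeted in WM266-4. MFSD12, which is needed for cysteine import into melanosomes and lysosomes, rose 3.49-fold with siRNA 1 and 3.21-fold on the arrays labelled siRNA 2. SLC24A5, a potassium-dependent sodium and calcium exchanger needed for normal pigmentation, fell 1.85-fold and 1.76-fold. TYRP1, which acts downstream of tyrosinase and stabilises it, rose 3.07-fold with siRNA 1. TYR, PMEL, MLANA, OCA2, SLC45A2 and GPR143 passed the test in neither comparison.

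Among the enzymes, TYRP1 read 7.44, 8.54 and 7.24 with siRNA 1 and 7.54, 8.41 and 7.00 on the arrays labelled siRNA 2, against 6.07, 6.64 and 5.64 with control siRNA. All 6 siRNA arrays lay above all 3 control arrays. The differences were 1.62 with siRNA 1 (95% confidence interval 0.694 to 2.54, limma adjusted p = 0.0314) and 1.53 on the arrays labelled siRNA 2 (interval 0.605 to 2.46, adjusted p = 0.0685, not called). With the replicate number as a block, TYRP1 was called for siRNA 1 as well (1.62, limma adjusted p = 0.000242). It was then also called on the arrays labelled siRNA 2 (1.53, adjusted p = 0.000856). The arrays numbered 1 of control siRNA and siRNA 2 as labelled deviated together only weakly over all tested probes (r = 0.0868). In the fit that has no such block, the siRNA 1 call was lost without control replicates 1 or 3 or siRNA 1 replicates 1 or 2, with differences of 1.60, 1.38, 1.77 and 1.22 and adjusted p of 0.0891, 0.111, 0.0561 and 0.137. It was lost too with no filter on dim probes (adjusted p = 0.0676) and with trend and robust moderation (adjusted p = 0.0947), and TYRP1 on the arrays labelled siRNA 2 was called without A375 overexpression replicate 3 (adjusted p = 0.0319). TYR read 13.00, 13.19 and 13.05 with siRNA 1 and 13.11, 13.09 and 12.92 on the arrays labelled siRNA 2, against 13.16, 13.23 and 13.14 with control siRNA. The siRNA 1 arrays overlapped the control arrays and the arrays labelled siRNA 2 lay just below them, and the difference was -0.10 with siRNA 1 (interval -0.389 to 0.197, adjusted p = 0.802) and -0.13 on the arrays labelled siRNA 2 (interval -0.427 to 0.159, adjusted p = 0.729).

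Of the structural proteins, PMEL, whose cleaved fragments form the melanosome fibrils, read 10.79, 11.25 and 9.75 with siRNA 1 and 10.58, 11.50 and 9.87 on the arrays labelled siRNA 2, against 11.05, 12.25 and 10.64 with control siRNA. The groups overlapped, and each siRNA array was below the control array of its own replicate number. The difference was -0.72 with siRNA 1 (interval -2.27 to 0.830, adjusted p = 0.685) and -0.67 on the arrays labelled siRNA 2 (interval -2.22 to 0.881, adjusted p = 0.749). With the replicate number as a block, PMEL passed for siRNA 1 (-0.72, limma adjusted p = 0.0270) and not on the arrays labelled siRNA 2 (-0.67, adjusted p = 0.0566). MLANA, a small melanosomal membrane protein and melanoma antigen, was at the edge of detection in WM266-4. It read 4.94, 4.66 and 4.78 with siRNA 1 (2 of 3 arrays detected) and 5.34, 4.39 and 4.46 on the arrays labelled siRNA 2 (1 of 3), against 4.46, 4.35 and 4.37 with control siRNA (0 of 3). Neither difference was called (adjusted p = 0.675 and 0.773).

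Of the transporters, MFSD12 read 11.35, 11.31 and 11.30 with siRNA 1 and 11.18, 11.21 and 11.21 on the arrays labelled siRNA 2, against 9.31, 9.51 and 9.72 with control siRNA. The siRNA arrays were nearly level among themselves and stood above every control array. The differences were 1.81 (SE 0.199, limma adjusted p = 6.13e-05) and 1.68 (SE 0.199, adjusted p = 0.000242), and both were called in all 23 alternatives run for each. SLC24A5 read 7.99, 7.93 and 7.89 with siRNA 1 and 8.03, 7.93 and 8.06 on the arrays labelled siRNA 2, against 8.81, 8.75 and 8.91 with control siRNA. No siRNA array reached the lowest control array. The differences were -0.89 (SE 0.202, adjusted p = 0.0127) and -0.82 (SE 0.202, adjusted p = 0.0364). The siRNA 1 call held in 23 of 23 alternatives, and the call on the arrays labelled siRNA 2 in 15 of 23. It was lost without any single control array, without any single array labelled siRNA 2, or without siRNA 1 replicates 2 or 3, with differences of -0.85 to -0.77 and adjusted p up to 0.108.

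SLC45A2, a transporter that bears on melanosomal pH, was read by 4 probes, of which ILMN_1685259 is annotated to a transcript of its own. With siRNA 1 their differences were -0.44, -0.38, -0.46 and -0.48 (adjusted p = 0.459 to 0.567). In the arrays labelled siRNA 2 they were 0.02, 0.24, 0.03 and -0.15 (adjusted p = 0.794 to 0.986). The brightest of them, ILMN_2246188, read 9.95, 10.02 and 9.78 with siRNA 1 and 10.38, 10.78 and 10.07 on the arrays labelled siRNA 2, against 10.46, 10.62 and 10.06 with control siRNA. All 3 siRNA 1 arrays lay below all 3 arrays of each of the other WM266-4 groups, without a call. OCA2, a melanosomal membrane protein tied to chloride flux and pH, was detected on 1 siRNA 1 array and on no other WM266-4 array, so its level there is not settled. GPR143, a receptor of the melanosome membrane, read 6.59, 6.82 and 6.34 with siRNA 1 and 6.48, 7.17 and 6.82 on the arrays labelled siRNA 2, against 6.74, 6.41 and 6.39 with control siRNA. Its groups overlapped (differences 0.07 and 0.31, adjusted p = 0.948 and 0.722).

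For siRNA 1, 2 of the 12 probes were called higher and 1 lower, where 7.93% of all 32167 tested probes were called in either direction, 4% of them higher and 3.92% lower. For the arrays labelled siRNA 2, 1 was called higher and 1 lower, against 3.63% of all probes (2.1% higher and 1.54% lower). The median difference over the 12 probes was -0.24 with siRNA 1 and 0.03 on the arrays labelled siRNA 2, against 0.00 and -0.01 over all probes. For the mean of both siRNA groups, 3 of the 12 were called, 2 higher and 1 lower, against 6.43% of all probes (3.51% higher and 2.92% lower). They were MFSD12 (1.74, adjusted p = 2.45e-05), TYRP1 (1.57, adjusted p = 0.0196) and SLC24A5 (-0.85, adjusted p = 0.00804), and both siRNA groups share the same control arrays. TYRP1 did not pass there without control replicates 1 or 3 (1.55 and 1.34, adjusted p = 0.0777 and 0.0935) or with trend and robust moderation (adjusted p = 0.0670).

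**Figure D2:**
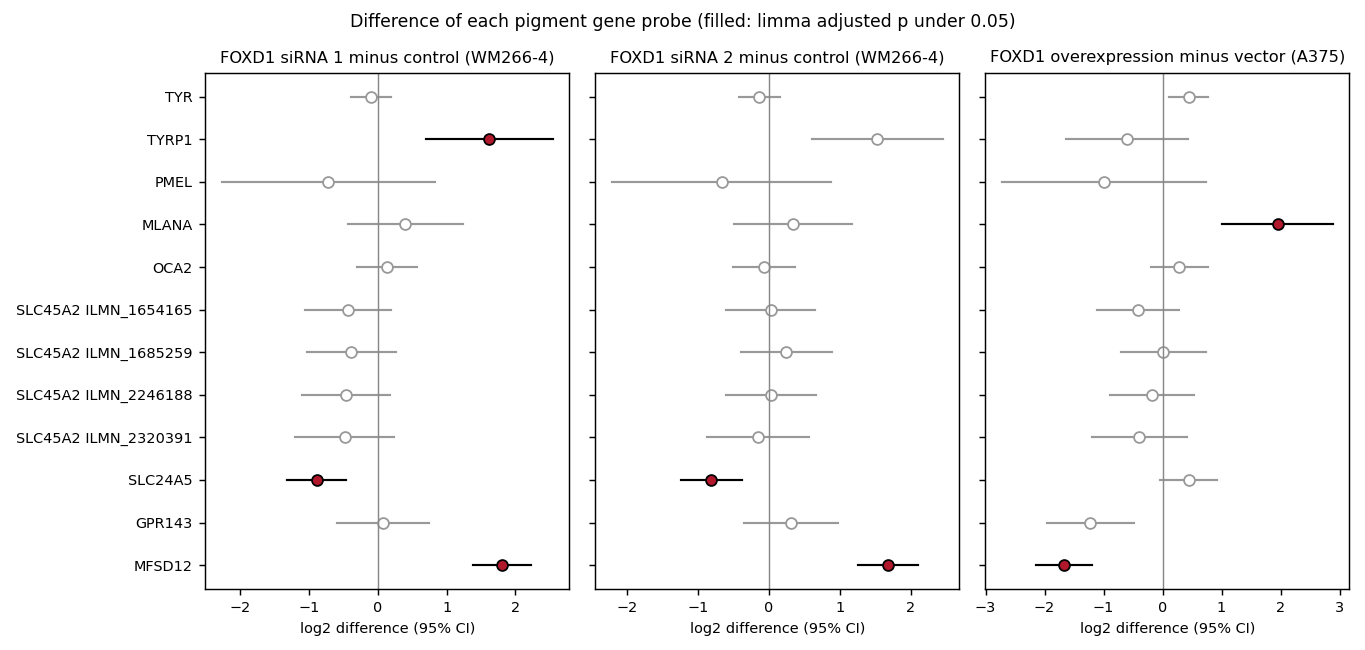
Log2 difference (horizontal axis) of each pigment gene probe with its 95% confidence interval, for siRNA 1 and the arrays labelled siRNA 2 against control siRNA in WM266-4 and for FOXD1 overexpression against empty vector in A375. Filled points passed limma's test at an adjusted p under 0.05. MFSD12 lies at 1.81 and 1.68 with the siRNAs and at -1.67 with overexpression.

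The siRNA groups were compared with each other to ask whether the pigment genes differed between them. None of the 12 probes was called by limma, where 2.92% of all probes were. At an unadjusted limma p under 0.05 also none of the 12 was found, where 4399 of all 32167 probes were. The lowest was 0.0557 for SLC45A2 probe ILMN_1685259 (-0.63, interval -1.27 to 0.0174). MFSD12 differed by 0.12 (interval -0.304 to 0.547), although its 3 siRNA 1 arrays lay above the 3 labelled siRNA 2. SLC24A5 differed by -0.07 (interval -0.500 to 0.361) and TYRP1 by 0.09 (interval -0.836 to 1.01). FOXD1 was lower in 1 of these groups only, so the calls shared by both were seen with and without a measured fall of the FOXD1 probe.

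The arrays labelled FOXD1 overexpression were set against empty vector in A375, where the FOXD1 probe itself was not called. MLANA rose 3.87-fold and MFSD12 fell 3.19-fold. TYR, GPR143, PMEL, TYRP1, SLC24A5, OCA2 and the SLC45A2 probes did not pass. Of the 12 probes 1 was called higher and 1 lower, where 3.71% of all probes were called (1.9% higher and 1.82% lower), and the median difference was -0.29, against 0.01 over all probes.

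MFSD12 read 9.21, 9.03 and 9.81 with overexpression, against 10.73 and 11.31 with empty vector. All 3 overexpression arrays lay below both vector arrays, and the difference was -1.67 (SE 0.223, limma adjusted p = 0.00132). It was -1.90 without overexpression replicate 3 (adjusted p = 0.000340) and -1.38 without vector replicate 2 (adjusted p = 0.0472). The MFSD12 call was lost with A375 arrays only in the fit (-1.67, adjusted p = 0.0537) and with the copied intensities left in (-1.21), where none of the 32167 probes was called. MLANA read 10.39, 10.41 and 8.61 with overexpression, against 8.28 and 7.42 with empty vector. All 3 overexpression arrays lay above both vector arrays, and the difference was 1.95 (SE 0.439, adjusted p = 0.0251). Without overexpression replicate 3 it was 2.55 (adjusted p = 0.000754). The call was lost without vector replicate 2, overexpression replicate 1 or overexpression replicate 2, at 1.53, 1.66 and 1.65 (adjusted p = 0.257, 0.0701 and 0.0843). It was also lost with A375 arrays only in the fit (1.95, adjusted p = 0.161) and with the copied intensities left in (1.79).

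TYR read 13.55, 13.54 and 13.24 with overexpression, against 13.08 and 12.92 with empty vector. Each overexpression array was above both vector arrays, and the difference of 0.44 was not called (interval 0.113 to 0.768, adjusted p = 0.134), nor was it without overexpression replicate 3 (0.54, adjusted p = 0.0748). GPR143 read 7.21, 7.00 and 5.69 with overexpression, against 7.66 and 8.05 with empty vector. The groups did not overlap, and the difference was -1.22 (interval -1.97 to -0.478, adjusted p = 0.0661). It was -0.75 without overexpression replicate 3 (adjusted p = 0.111) and -1.51, then called, without overexpression replicate 1 (adjusted p = 0.0355).

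PMEL read 13.56, 13.12 and 10.01 with overexpression, against 13.14 and 13.30 with empty vector. Replicates 1 and 2 were level with the vector arrays and replicate 3 was more than 3 log2 units lower. The difference was -0.99 with all arrays (interval -2.72 to 0.741, adjusted p = 0.597) and 0.12 without replicate 3 (adjusted p = 0.957). The same array was the lowest of the overexpression group in all 4 SLC45A2 probes, at 8.46, 7.22, 9.46 and 7.49, where the other overexpression arrays read 9.57 and 9.81, 7.95 and 8.26, 10.55 and 10.96, and 8.67 and 8.94. TYRP1 ran the other way, at 6.79, 6.90 and 8.27 with overexpression, against 7.80 and 8.05 with empty vector. Its difference was -0.61 (interval -1.64 to 0.428, adjusted p = 0.585) and -1.08 without replicate 3 (adjusted p = 0.230). SLC24A5 read 8.62, 8.41 and 7.60 with overexpression, against 7.81 and 7.73 with empty vector. Its difference of 0.44 (interval -0.0392 to 0.924, adjusted p = 0.336) became 0.75 without replicate 3, which was called (adjusted p = 0.0184). MITF was also lowest on that array, at 10.03, 10.44 and 9.49 with overexpression, against 9.94 and 10.33 with empty vector, and its part in these values was not tested. OCA2 was detected on 1 overexpression array and on neither vector array.

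**Figure D3:**
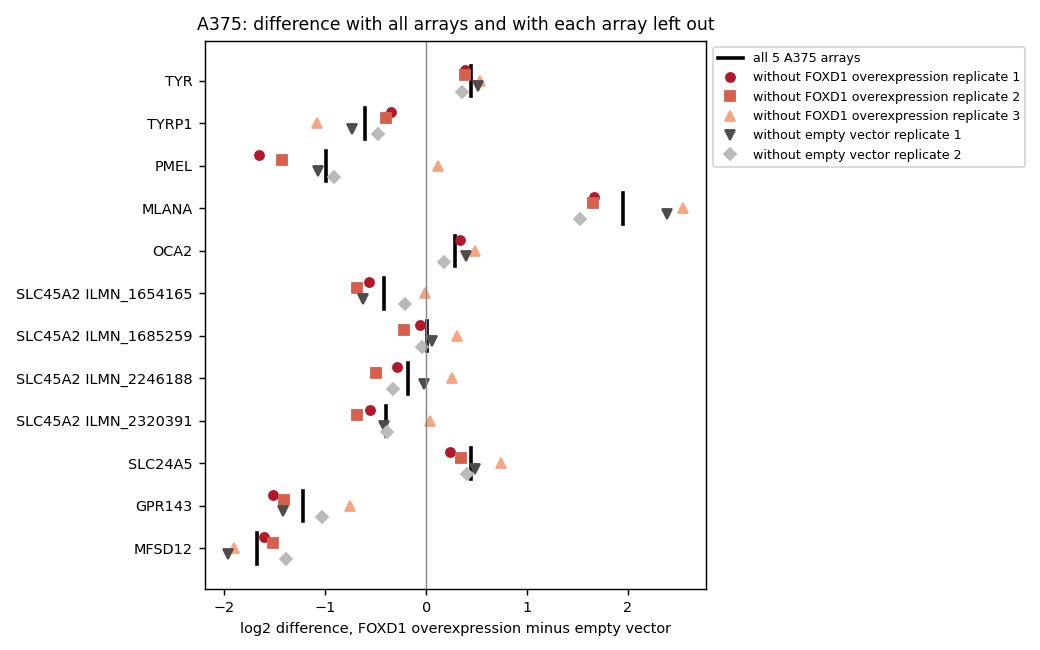
Log2 difference between FOXD1 overexpression and empty vector in A375 (horizontal axis) for each pigment gene probe, with all 5 A375 arrays (black bar) and with each array left out in turn (symbols). Leaving out overexpression replicate 3 moves PMEL to 0.12 and SLC24A5 to 0.75, whereas MFSD12 stays between -1.96 and -1.38.

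The changes in the 2 lines were set against each other by subtracting the WM266-4 change (control siRNA over the averaged siRNA groups) from the A375 change (overexpression over empty vector). A value of 0 means that a gene moved as far with labelled overexpression in A375 as it did the other way with the siRNAs in WM266-4. FOXD1 itself was called neither with overexpression nor on the arrays labelled siRNA 2, so the pairing of these changes rests on the labels. MFSD12, lower with overexpression and higher with the siRNAs, was at 0.07 (interval -0.530 to 0.674, adjusted p = 0.931). MLANA was the only one of the 12 probes called (2.32, interval 1.14 to 3.50, limma adjusted p = 0.0302), where 4.32% of all probes were (2.3% higher and 2.02% lower). It was higher with overexpression in A375 and not called in WM266-4, where it was near the detection limit. SLC24A5 was at -0.41 (interval -1.02 to 0.199, adjusted p = 0.514), TYRP1 at 0.97 (interval -0.340 to 2.28, adjusted p = 0.461) and GPR143 at -1.03 (interval -1.97 to -0.0878, adjusted p = 0.228). Without overexpression replicate 3, MLANA was at 2.92 (adjusted p = 0.00138) and no other probe was called. Its call was lost without any single control siRNA array, without vector replicate 2 or overexpression replicates 1 or 2, with no filter on dim probes and with the copied intensities left in (1.90 to 2.35, adjusted p = 0.0501 to 0.177).

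The untreated states of the lines were approached by setting A375 with empty vector against WM266-4 with control siRNA. Line, vector and siRNA cannot be told apart in this comparison. MLANA was at least 10.6-fold higher in A375, where both vector arrays detected it and none of the 3 control siRNA arrays did (adjusted p = 0.000163). The bound sets the vector mean of 7.85 against the mean, over the control arrays, of the higher of the array's lowest detected signal and its own MLANA value, and those values averaged 4.39. TYRP1 was 1.81 higher on the log2 scale (adjusted p = 0.0215), MFSD12 2.84-fold higher (adjusted p = 0.000490) and GPR143 2.54-fold higher (adjusted p = 0.0181), and SLC24A5 was 2.08-fold lower (adjusted p = 0.00577). So 5 of the 12 probes were called, where 14.1% of all probes were (7.27% higher and 6.85% lower). The groups of each of these 5 did not overlap, and neither did those of PMEL and TYR, which were not called. What share of all probes parts in this way was not counted, and TYR parted at a difference of only -0.18. No result is drawn from the parting of 2 arrays from 3. PMEL read 13.14 and 13.30 with empty vector, against 11.05, 12.25 and 10.64 with control siRNA. This difference of 1.90 missed the threshold (adjusted p = 0.142), and it was called without A375 overexpression replicate 3 (adjusted p = 0.0224). TYR differed by -0.18 (interval -0.503 to 0.152, adjusted p = 0.514), and the SLC45A2 probes by 0.11 to 0.20 (adjusted p = 0.789 to 0.881). The TYRP1 call was lost without control replicates 1 or 3 or without either vector array, at 1.57 to 1.94 (adjusted p = 0.0550 to 0.143). Without vector replicate 2 those of GPR143 (1.15, adjusted p = 0.153) and SLC24A5 (-1.02, adjusted p = 0.0553) were lost too, and GPR143 also without control replicate 2 (1.29, adjusted p = 0.0518). With the copied intensities left in, MFSD12 (1.05, adjusted p = 0.0573) and GPR143 (0.36, adjusted p = 0.744) were not called, and TYRP1 was not with trend and robust moderation (adjusted p = 0.0651).

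For 5 members the order of the group means differed from gene to gene. MFSD12 averaged 11.32 ± 0.02 with siRNA 1, 11.20 ± 0.02 on the arrays labelled siRNA 2, 9.52 ± 0.21 with control siRNA and 9.35 ± 0.41 with overexpression (SD, n = 3 each), and 11.02 ± 0.41 with empty vector (SD, n = 2). The siRNA groups and the vector arrays were thus at one level and the control and overexpression arrays at another, with the neighbours within each level differing by no more than their spread except the siRNA groups. SLC24A5 averaged 7.94 ± 0.05, 8.01 ± 0.07 and 8.82 ± 0.08 with siRNA 1, with siRNA 2 as labelled and with control siRNA, and 8.21 ± 0.54 with overexpression (SD, n = 3 each) and 7.77 ± 0.06 with empty vector (SD, n = 2). Control siRNA was highest, and the other groups were not separated beyond the spread of overexpression. TYRP1 averaged 7.74 ± 0.70 with siRNA 1, 7.65 ± 0.71 with siRNA 2 as labelled, 6.12 ± 0.50 with control siRNA, 7.32 ± 0.82 with overexpression and 7.93 ± 0.18 with empty vector, so control siRNA was lowest and the other 4 groups were not separated beyond their spread. PMEL was at 10.60 ± 0.77, 10.65 ± 0.82 and 11.31 ± 0.83 in the WM266-4 groups and at 12.23 ± 1.94 with overexpression and 13.22 ± 0.11 with empty vector, the neighbours up to overexpression differing by less than their spread. GPR143 averaged 6.58 ± 0.24 with siRNA 1, 6.82 ± 0.35 with siRNA 2 as labelled, 6.51 ± 0.20 with control siRNA, 6.63 ± 0.83 with overexpression and 7.86 ± 0.27 with empty vector, which was the highest.

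The replicate numbers of WM266-4 marked a shift shared by some pigment genes and not by others. Taken as the deviation from each group's mean, averaged over the 3 groups, PMEL deviated by 0.81 on the arrays numbered 2 and by -0.77 on those numbered 3. TYRP1 deviated by 0.69 and -0.54 and the SLC45A2 probes by 0.12 to 0.33 and -0.43 to -0.27 on the same arrays. For PMEL and TYRP1 every array numbered 2 lay above its group's mean and every array numbered 3 below it. MFSD12 and SLC24A5 deviated by no more than 0.07 in either direction on this average, although MFSD12 with control siRNA ran from 9.31 to 9.72.

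**Figure D4:**
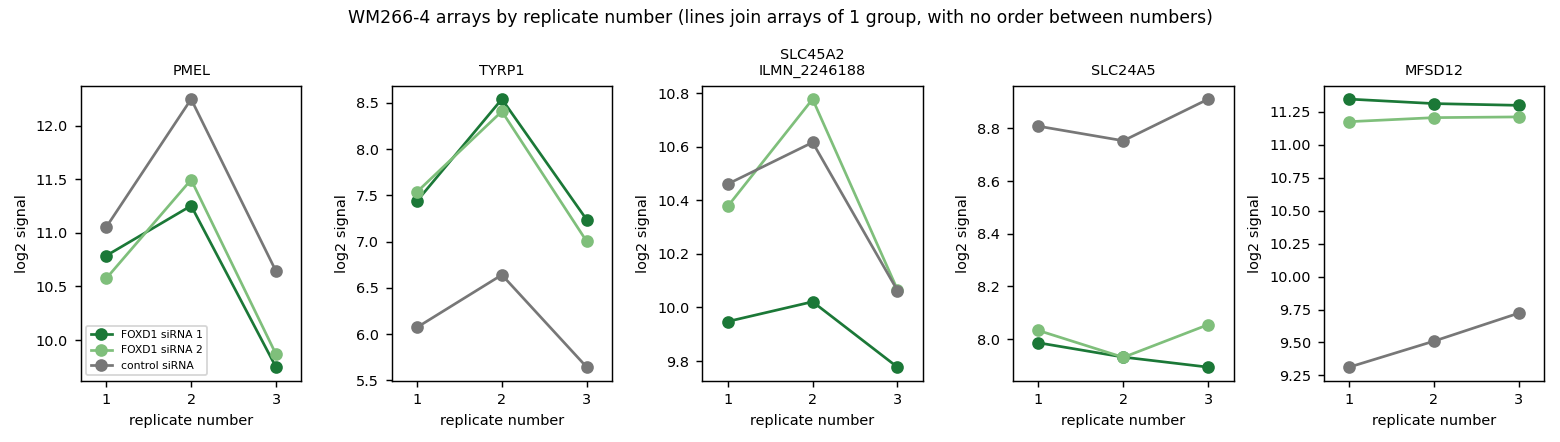
Log2 signal (vertical axis, scaled per panel) of 5 pigment gene probes on the 9 WM266-4 arrays by replicate number (horizontal axis), with lines joining the arrays of siRNA 1, siRNA 2 as labelled and control siRNA. PMEL, TYRP1 and SLC45A2 are highest on the arrays numbered 2 in each group. SLC24A5 and MFSD12 show control siRNA apart from both siRNA groups. They change little between numbers, except MFSD12 with control siRNA, which runs from 9.31 to 9.72.

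The authors' own log2 values, which carry no background subtraction and were normalised within each line, gave smaller differences for the dimmer probes. MFSD12 stood at 1.72 with siRNA 1, 1.60 on the arrays labelled siRNA 2 and -1.55 with overexpression in those values (limma adjusted p = 1.66e-06, 7.92e-06 and 7.94e-05). SLC24A5 fell by 0.73 and 0.67 on that scale (adjusted p = 0.00194 and 0.00667). TYRP1 rose by 1.00 with siRNA 1 (adjusted p = 0.0333) and was 0.94 higher on the arrays labelled siRNA 2 without a call (adjusted p = 0.0697). In A375, MLANA rose by 1.66 (adjusted p = 0.00505), and TYR at 0.49 (adjusted p = 0.0122) and GPR143 at -0.79 (adjusted p = 0.0159) were called as well. The authors' values average 8.25 for MLANA with empty vector and 6.53 with control siRNA, where the probe was not detected. These values were scaled apart in the lines, so their level across lines is open to that scaling.

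MITF, SOX10, PAX3, MC1R and TFAP2A, which stand upstream of or beside the pigment genes, were called in none of the siRNA and overexpression comparisons. MITF, the master regulator of the melanocyte lineage, read 9.04, 9.32 and 8.86 with siRNA 1 and 9.44, 9.53 and 9.47 on the arrays labelled siRNA 2, against 9.00, 9.67 and 9.24 with control siRNA. Its groups overlapped, and it differed by -0.23 with siRNA 1 (interval -0.723 to 0.255, limma adjusted p = 0.674), 0.18 on the arrays labelled siRNA 2 (interval -0.311 to 0.667, adjusted p = 0.801) and -0.15 with overexpression (interval -0.697 to 0.396, adjusted p = 0.835). SOX10, which acts with MITF, differed by -0.13, 0.09 and 0.01, and MC1R, the melanocortin receptor upstream of MITF, by -0.30, -0.27 and -0.31 (lowest adjusted p = 0.283). PAX3, a factor acting on the MITF promoter, differed by 0.19, 0.12 and 0.27 (lowest adjusted p = 0.554) and was near the detection limit. TFAP2A, which shares targets with MITF, differed by -0.03, 0.12 and 0.55, the last with an adjusted p of 0.0581. In the comparison of A375 with empty vector against WM266-4 with control siRNA, MITF was higher by 0.83 (adjusted p = 0.0423). MC1R went the other way there, averaging 11.56 with empty vector against 11.86 with control siRNA. In the same order SOX10 averaged 11.87 and 11.62, TFAP2A 10.04 and 9.82, and PAX3 4.67 and 4.61.

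Lists of other melanocyte genes were read with 1 probe per gene, with the calls of the same fit. Of all 15544 genes read so, 11.1% were called with siRNA 1 (5.77% higher and 5.31% lower), 5.04% on the arrays labelled siRNA 2 (3.05% higher and 1.99% lower) and 5.11% with overexpression (2.69% higher and 2.43% lower). Each list count is to be read against these shares. Of 16 melanocyte regulators tested with 1 probe each, 0 were called higher and 2 lower with siRNA 1, and 0 higher and 1 lower on the arrays labelled siRNA 2, with list medians of -0.08 and 0.10 against 0.01 and 0.00 over all genes. LEF1, a Wnt pathway factor that can act with MITF, read 11.09, 11.12 and 11.35 with siRNA 1 and 11.34, 11.00 and 11.49 on the arrays labelled siRNA 2, against 12.24, 12.56 and 12.41 with control siRNA (differences -1.22 and -1.13, limma adjusted p = 0.00101 and 0.00374). ZEB2, a factor of the differentiated melanocyte state, fell by 0.95 with siRNA 1 (adjusted p = 0.0129) and was at -0.69 on the arrays labelled siRNA 2 (adjusted p = 0.103). With overexpression 2 rose and 1 fell (median 0.15). SOX9, a neural crest factor, read 9.05, 9.42 and 8.43 with overexpression, against 6.70 and 6.47 with empty vector (difference 2.38, adjusted p = 0.000168), so its groups lay far apart. TFAP2B was at least 2.18-fold higher with overexpression, being detected on all 3 of those arrays and on no other array. It passed the detection filter only through the group where it is high, so its place in the count rests on that filter. IRF4, which cooperates with MITF at the TYR gene, fell by 0.85 (adjusted p = 0.0191).

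Of 31 genes of premelanosome and melanosome biogenesis, 4 rose and 2 fell with siRNA 1, 3 rose and 0 fell on the arrays labelled siRNA 2, and 0 were called with overexpression, with medians of 0.08, 0.09 and 0.00. AP1M1, a subunit of the AP-1 adaptor complex that sorts melanosome cargo, read 10.27, 10.41 and 10.26 with siRNA 1 and 10.35, 10.60 and 10.48 on the arrays labelled siRNA 2, against 9.21, 9.10 and 9.39 with control siRNA. The siRNA arrays all lay above the control arrays (differences 1.08 and 1.25, limma adjusted p = 0.000310 and 0.000205). AP1B1 of the same complex rose by 0.94 with siRNA 1 (adjusted p = 0.00257) and by 0.95 on the arrays labelled siRNA 2 (adjusted p = 0.00481). VAMP7, a SNARE protein of melanosome cargo transport, differed between the siRNAs, at 7.86, 8.06 and 8.53 with siRNA 1 and 9.59, 9.66 and 9.52 on the arrays labelled siRNA 2, against 9.59, 9.58 and 9.56 with control siRNA. It fell by 1.43 with siRNA 1 (adjusted p = 0.000141), and siRNA 1 minus siRNA 2 was -1.44 (adjusted p = 0.000262). BLOC1S2, a subunit of the BLOC-1 complex, rose by 1.05 with siRNA 1 (adjusted p = 0.00362) and was 1.14 above the arrays labelled siRNA 2 (adjusted p = 0.00428). HPS1, of the BLOC-3 complex, rose by 0.60 on the arrays labelled siRNA 2 (adjusted p = 0.0235) and was at 0.24 with siRNA 1 (adjusted p = 0.378).

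Of 18 genes of melanosome ion and metabolite handling, 1 rose with each siRNA. It was ATP6V0D1, a subunit of the proton pump of acid organelles, at 9.57, 9.64 and 9.55 with siRNA 1 and 9.54, 9.15 and 9.52 on the arrays labelled siRNA 2, against 7.94, 8.10 and 8.03 with control siRNA. Every siRNA array was more than 1 log2 unit above every control array (differences 1.56 and 1.38, limma adjusted p = 1.2e-05 and 9.91e-05). With overexpression 1 of the 18 rose and 1 fell. TPCN2, a cation channel of melanosomes and lysosomes, rose by 0.94 (adjusted p = 0.0462), and its relative TPCN1 was at least 1.91-fold lower, being detected on both vector arrays and on no other array. It passed the detection filter only through the vector arrays, so its place in the count rests on that filter. Of 13 genes of melanosome transport none was called with either siRNA, and 1 rose and 1 fell with overexpression. These were SYTL2, a Rab27 effector (1.17, adjusted p = 0.0365), and MREG, a melanosome trafficking protein (-1.50, adjusted p = 0.0194).

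Of 21 other genes associated with MITF, 0 rose and 2 fell with siRNA 1, 1 rose and 0 fell on the arrays labelled siRNA 2, and 2 rose and 1 fell with overexpression, with medians of -0.09, -0.16 and -0.02. GPM6B, a membrane glycoprotein, and DAPK1, a kinase, fell by 1.05 and 0.93 with siRNA 1 (limma adjusted p = 0.00379 and 0.0217) and were at -0.52 and -0.81 on the arrays labelled siRNA 2 (adjusted p = 0.188 and 0.0705). PPARGC1A, a coactivator of mitochondrial genes, rose by 1.30 on the arrays labelled siRNA 2 (adjusted p = 0.0399) and was at 1.08 with siRNA 1 (adjusted p = 0.0574). CTSK, a lysosomal protease, read 10.39, 10.11 and 10.45 with overexpression, against 8.02 and 8.42 with empty vector. Its groups were well apart (difference 2.10, adjusted p = 0.00201). S100B, a marker of melanocytic cells, rose by 1.05 (adjusted p = 0.0281), and the third of these was IRF4, given above.

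**Figure D5:**
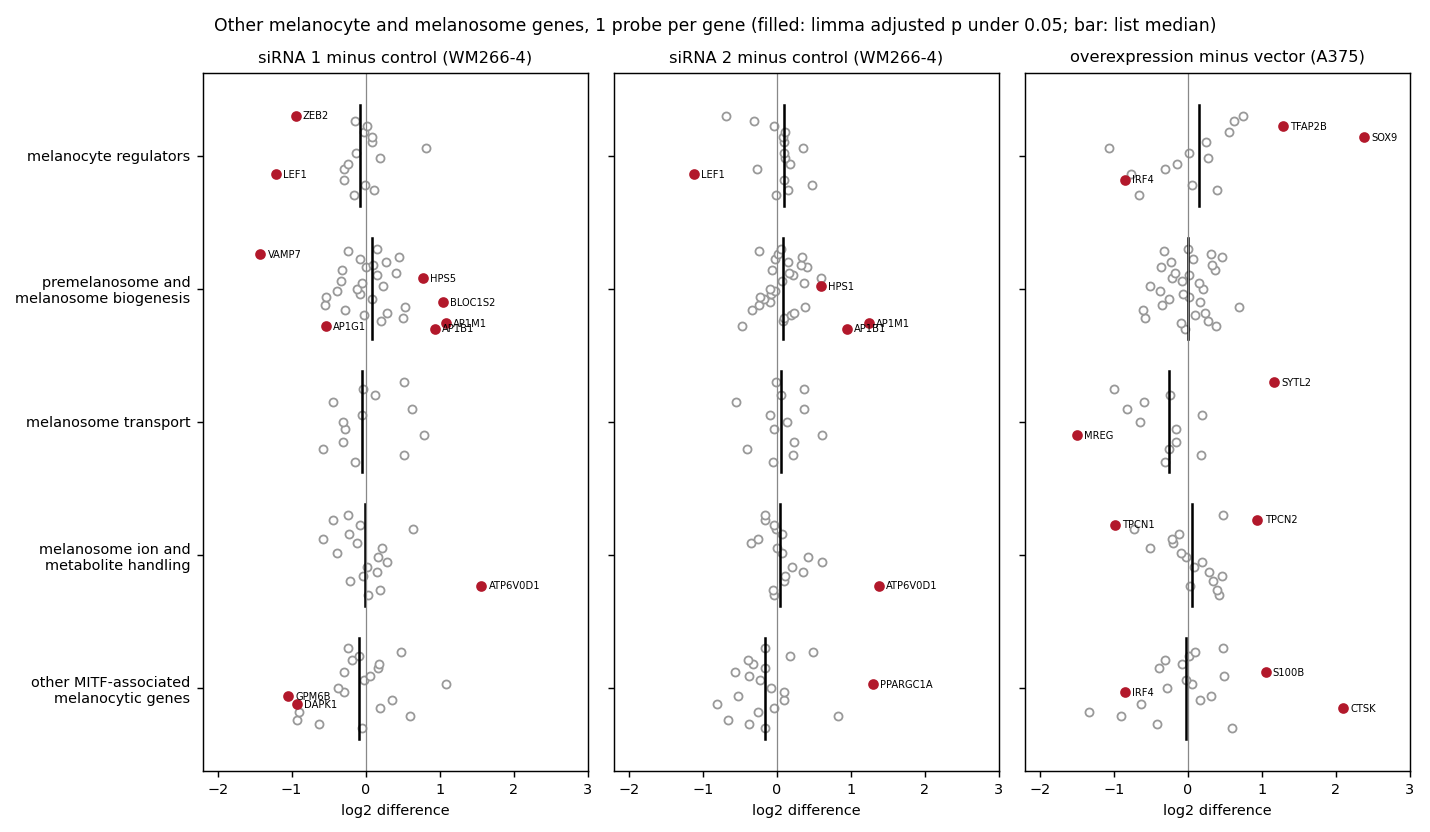
Log2 difference (horizontal axis) of the genes of 5 lists around the melanosome, 1 probe per gene, for siRNA 1 and siRNA 2 as labelled against control siRNA and for overexpression against empty vector. Filled and named points passed limma's test, open points did not, and black bars are list medians, which lie between -0.26 and 0.15.

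Over the 9 WM266-4 arrays, the probes most like TYR among 13172 probes detected on all 9 were those of SP3 (Pearson r = 0.949), RPL26L1 (0.936) and OAT (0.928). Those most like TYRP1 were MRPL22 (0.984), ITM2A (0.973) and SMARCB1 (0.968), and those most like PMEL were LRP8 (0.979), FAXC (0.950) and MCRS1 (0.942). These arrays share the siRNA groups and the replicate numbers, so the values describe likeness over 9 points of 3 groups. MLANA was not detected on all 9 arrays and was not compared.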

How the data were processed

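The authors deposited bead array intensity values with a detection p-value per probe, and a table of log2 values that the labels do not describe further. Set against the intensities, the authors' log2 values were quantile normalised within each cell line and carry no background subtraction. The intensities deposited for A375 empty vector replicate 1 matched those of overexpression replicate 3 within 1% for 100% of probes, so the antilog of the authors' log2 values replaced it. The table holds 48107 probes, and 10 that lack a value on some array were not used. Background was corrected by normexp from the detection p-values (offset 16), arrays were quantile normalised together, and log2 was taken. Probes detected (p under 0.05) on at least 2 arrays were kept, 32167 in all. Genes were named from platform annotation (30107 probes with 1 symbol, 8 with several, 17982 with none). Limma 3.58.1 in R 4.3.3 fitted the 5 groups without covariates, with Benjamini-Hochberg adjustment over all probes and calls under 0.05. The number of arrays limits the precision. The fit was tested on simulated data. Genes named from the other lists were at most 3 per list and comparison, by size among those called. The members and lists were chosen with earlier results of these data known. Same-numbered WM266-4 arrays deviated together (r 0.0868 to 0.198, over 0.1 in 8 of 9 pairs), which held for every pair of siRNA 1 with control. Alternatives were other background, normalisation, filter and moderation settings, the authors' values, the copied column, a replicate block and each array left out.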

Additional observations from a re-analysis of the deposited data

Results flagged for a closer look

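The change of MLANA with labelled FOXD1 overexpression in A375 differed from its change with the siRNAs in WM266-4, turned to the same direction, by 2.32 on the log2 scale (limma adjusted p = 0.0302). A test of this difference between the lines drew attention to it. The call held in 15 of 23 alternatives, and it was lost at 1.90 without A375 empty vector replicate 2 (adjusted p = 0.177). MLANA was detected on 3 of the 9 WM266-4 arrays.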

How the results depend on the processing

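The count of pigment gene probes called with overexpression was 2. It was 4 with no background correction, with the authors' log2 values, with the replicate block and with trend and robust moderation, and 0 with A375 arrays only in the fit and with the copied intensity column as deposited. Over all 32167 probes the calls moved too, with 2205, 2257, 1496 and 1918 in the settings that gave 4 and 175 and 0 in those that gave 0, set against 1195 as reported. The count for the difference between lines was 1, and 0 with no filter on dim probes or with the copied column. Over all probes 1391 were called there as reported, 1343 of 48097 with no filter and 167 with the copied column. The count for A375 vector against WM266-4 control was 5, and 3 with the copied column, where calls over all probes were 4545 and 3200. With each array left out in turn, the counts ran from 2 to 3 for siRNA 1, 1 to 3 for siRNA 2 as labelled, 2 to 3 for the mean of the siRNAs, 0 to 0 for siRNA 1 minus siRNA 2, 1 to 3 for overexpression, 0 to 1 for the difference between lines and 2 to 6 for A375 vector against WM266-4 control. Calls over all probes moved as well in these fits. In the same order they ran from 1488 to 2898, 532 to 1454, 1052 to 2393, 467 to 1099, 109 to 1196, 431 to 1433 and 2229 to 5052. No called value changed sign under the alternatives run. With the replicate block, TYRP1 on the arrays labelled siRNA 2 was called (1.53, limma adjusted p = 0.000856). So was PMEL for the mean of the siRNAs (-0.69, adjusted p = 0.0192). TYRP1 and SLC24A5 were called with overexpression (-1.08 and 0.75, adjusted p = 0.00999 and 0.0220), at the differences found without overexpression replicate 3. That array is the only A375 array numbered 3, so its block term fits it exactly. With the array left out and no block, SLC24A5 was called (adjusted p = 0.0184) and TYRP1 was not (adjusted p = 0.230). The block also takes the shift between WM266-4 numbers out of the spread that all groups share. PMEL was called in A375 vector against WM266-4 control (2.02, adjusted p = 0.00129). There the block sets the fitted levels of the arrays numbered 1 in each line against each other, so the value differs in kind from the unblocked 1.90. A375 arrays of one number did not deviate together (r = -0.0265 and 0.0294). Leaving out both A375 empty vector replicate 1 and overexpression replicate 3 was added after seeing the data, and it called SLC24A5 with overexpression (0.79, adjusted p = 0.0460). The causes were not tested. MLANA and OCA2 were near background in WM266-4, which limits what their values there can show.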
